A study of Mus musculus with 3 samples.

Results

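The mitotic kinesin genes described here are Kif11, Kif15, Kif23, Kif20a, Kif20b, Kif14, Kif4, Kif22, Kif18a and Kif2c, 10 of the 21938 protein-coding genes of GENCODE M21 on chromosomes 1 to 19, X and Y. They were chosen by name as motors of mitosis and cytokinesis, with earlier results of these data known, so their counts are descriptions. Each gene body and the 5 kb before its 5′ end were searched for NF-Y-ChIP and H3K4me3-ChIP peaks. The study asked which genes NF-Y occupies in the developing cortex. Chromatin from mouse embryonic cortex at E13.5 was precipitated with an antibody against the NF-YC subunit (NF-Y-ChIP) or against trimethylated lysine 4 of histone H3 (H3K4me3-ChIP), and an input was sequenced without precipitation. There was 1 library of each kind, so no replicate error exists, no test was run, and every interval below is a Wilson 95% interval that covers counting only. Neither a strain nor a number of pooled embryos is given in the labels, and the samples carry no labelled deletion or treatment. Whole cortex holds dividing progenitors beside neurons that no longer divide, so each peak is an average over both.

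Kinesins are motors that walk along microtubules or take their ends apart. The mitotic ones build the bipolar spindle, move and align the chromosomes, and then organise the central spindle and the midbody through which the daughter cells separate. Their genes are switched on late in the cell cycle, and in the cortex they mark the progenitors of the ventricular zone. NF-Y is a trimer of NF-YA, NF-YB and NF-YC that binds the CCAAT box, and promoters of late cell cycle genes often pair CCAAT boxes with a cell cycle genes homology region (CHR), an element read by the MuvB core of the DREAM complex. H3K4me3 is the histone mark of active or poised promoters.

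None of the mitotic kinesin genes had an NF-Y-ChIP peak (0 of 10, interval 0 to 27.8%), and all of them carried H3K4me3 over the 5′ end of the gene (10 of 10, interval 72.2 to 100%). The share of all protein-coding genes with an NF-Y-ChIP peak by the same rule was 3.69%, so a count of 0 among 10 genes does not set these genes apart. For H3K4me3-ChIP the share was 65.4% by the same rule and 54.0% for a peak over the 5′ end, and all 10 kinesins met both. An H3K4me3-ChIP peak covered the 5′ end of 11836 protein-coding genes, called marked promoters from here on. Within 1 kb of that end 5.09% of them held a summit of NF-Y-ChIP, and again 0 of the 10 kinesins did. The NF-Y-ChIP list holds called peaks only, so the occupancy of these promoters below the calling threshold of the authors is not measured. Fewer dividing cells and less NF-Y per cell cannot be told apart in whole tissue. A CCAAT box was found in 6 of the 10 promoters, beside 38.2% of marked promoters, and in 4 of the 10 a box stood a short way before a CHR element, beside 2.23%.

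The 4 promoters with the paired elements were those of Kif11, Kif23, Kif14 and Kif22. Kif11 is the plus-end motor that slides antiparallel microtubules apart to make the spindle bipolar. Kif23 is the motor of centralspindlin, Kif14 acts at the midbody with citron kinase, and Kif22 is a chromokinesin that pushes chromosome arms away from the poles. The sequences below are from GRCm38, written 5′ to 3′ on the strand of the gene, with CCAAT or ATTGG and any CHR word in capitals. They are shown because they hold the boxes. The CHR elements of Kif14 at +17 and of Kif22 at +34 lie beyond the stretches shown. A CHR element was counted as TTTGAA or TTCGAA on either strand, so it also reads TTCAAA.
Kif11, chr19:37376323-37376377, plus strand: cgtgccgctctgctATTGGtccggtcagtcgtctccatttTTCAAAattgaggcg
Kif23, chr9:61946786-61946815, minus strand: cggccgctgATTGGcctgTTTGAAatgcgc
Kif14 upstream box, chr1:136466198-136466227, plus strand: aagctctgagctCCAATtccgcccagagga
Kif14 box at the 5′ end, chr1:136466322-136466351, plus strand: cgctacgcccagcgaCCAATcaggaagcga
Kif22 upstream pair, chr7:127042625-127042668, minus strand: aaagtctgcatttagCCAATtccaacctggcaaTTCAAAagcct
Kif22 box at the 5′ end, chr7:127042460-127042489, minus strand: cggcacgtagctgcgATTGGtcgaatctga
In Kif11 the box began 66 bp before the 5′ end and the CHR 26 bp after the start of the box. In Kif23 that distance was 9 bp, with the box at −32. Kif14 had boxes at −133 and −6, and a CHR at +17 that began 23 bp after the second. The RefSeq start of Kif14 lies 1505 bp further into the gene, and no pair was found at that start. Kif22 had 2 such pairs, with boxes at −182 and −3 and CHR elements 18 and 37 bp after them. The Kif11 and Kif23 stretches and both upstream stretches lie outside annotated exons, and the other 2 run over the 5′ end into the first exon of Kif14 (9 bases) and of Kif22 (12 bases).

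Kif4, Kif2c and Kif18a had no pair in the window from the GENCODE 5′ end, but had one in another window or from another start. Kif4 is the chromokinesin that sets the length of the central spindle with Prc1, Kif2c is a kinesin-13 that depolymerises microtubules at centromeres, and Kif18a is a kinesin-8 that damps the oscillation of chromosomes at the metaphase plate. Their boxes are shown for comparison with the paired promoters, in the same notation.
Kif4 upstream box, chrX:100625497-100625526, plus strand: aagtaggtgttaagATTGGggagggggggt
Kif4 box at the 5′ end, chrX:100625727-100625756, plus strand: ctatcccatagggATTGGggccagacacaa
Kif4 pair inside the gene, chrX:100626060-100626089, plus strand: ATTGGctggcgcctctgggatcaaTTTGAA
Kif2c pair, chr4:117183070-117183099, minus strand: tatttttaATTGGtgtcTTCGAAatattgt
Kif18a box, chr2:109280778-109280807, plus strand: cgaacggcagCCAATgagatggatagctgg
Within the window counted here, from 250 bp before to 50 bp after the GENCODE 5′ end, Kif4 had boxes at −226 and +3, which are 229 bp apart, and no CHR. Both lie in exons of Pdzd11, which is transcribed from the opposite strand, and the second also lies in an exon of Kif4. The RefSeq start of Kif4 lies 328 bp further into the gene. Counted from there, Kif4 had boxes at −152 and −5 and a CHR at +19, so the pair stands at this start. For Kif18a the box began at +50 and a CHR at +85, just outside the window. From the Kif18a start nearest the H3K4me3-ChIP summit, at +131, they lie at −81 and −46. Kif2c had no box in the window. Further out it had boxes at −495 and −452 and CHR elements at −443, −424 and −391, of which the closest box and CHR are shown. The RefSeq start of Kif2c lies 3867 bp further into the gene, and no pair was found at that start.

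The 3 remaining kinesins had no pair in either window. Kif20a, which carries the chromosomal passenger complex to the central spindle, had a single CCAAT box at −136 and no CHR. Kif20b, a kinesin-6 of late cytokinesis needed for normal brain size in mice, had no box and CHR elements at +4 and +10. Kif15, a kinesin-12 that backs up Kif11 in holding the spindle poles apart, had no box even from 500 bp before to 100 bp after its 5′ end, and had CHR elements at −199 and +16. A word that is missing says only that those letters are not in the window.

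**Figure D1:**
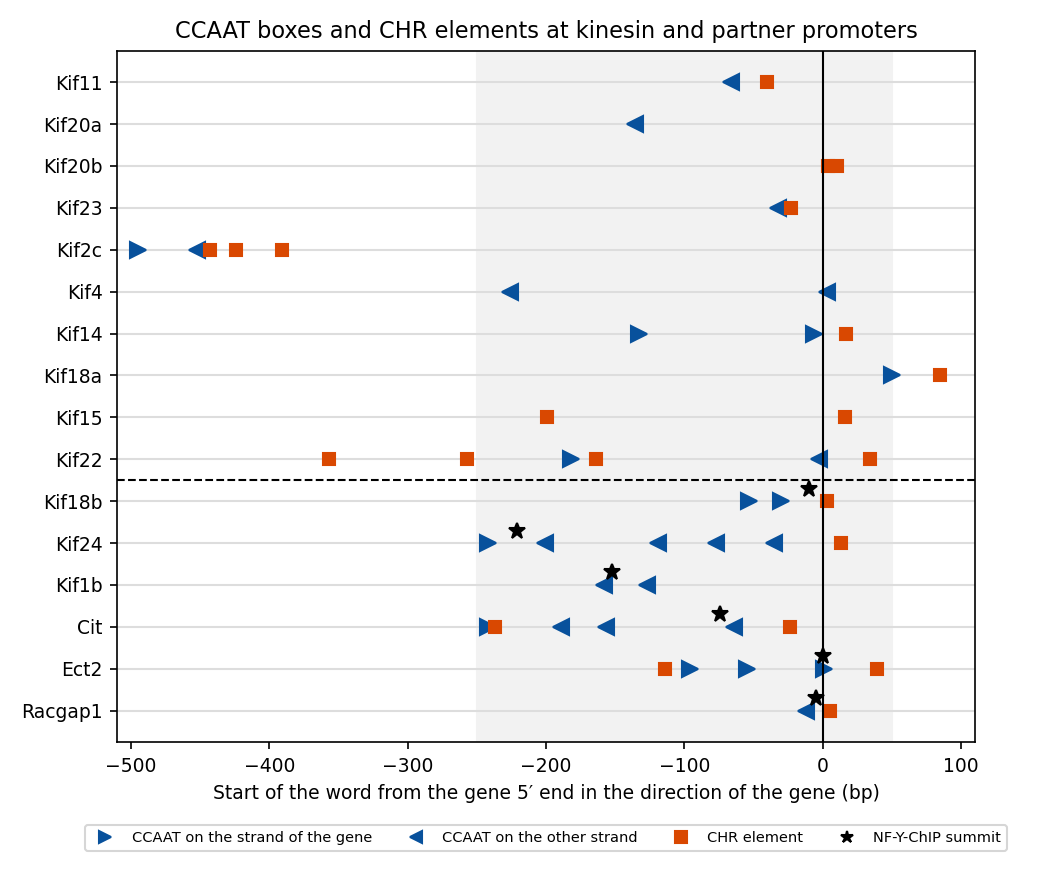
Start of each CCAAT box (triangles, pointing right on the strand of the gene and left on the other strand) and CHR element (squares) from the gene 5′ end in bp, for the 10 mitotic kinesins above the dashed line and 6 kinesin or partner genes with an NF-Y-ChIP summit (stars) below it. The grey band is the window that was counted, from 250 bp before to 50 bp after the 5′ end; words outside it are drawn for the 10 kinesins only. No star stands above the dashed line.

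The counts of both words are set beside those of marked promoters. At least 1 CCAAT box was found in 6 of 10 (interval 31.3 to 83.2%) against 38.2% of marked promoters and 39.0% of all protein-coding genes. At least 2 boxes were found in 3 of 10, namely Kif4, Kif14 and Kif22, against 14.4%. A box in the extended consensus, with a pair of purines before CCAAT and C or G and then a purine after it, was found in Kif23, Kif14 and Kif22, against 15.4%. The intervals of these 3 counts all include the share of marked promoters.

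The CHR element was found in 6 of 10 kinesins (Kif11, Kif20b, Kif23, Kif14, Kif15 and Kif22; interval 31.3 to 83.2%), against 12.6% of marked promoters and 3951 of 21938 protein-coding promoters. A CCAAT box beginning up to 100 bp before a CHR element was found in 4 of 10 (interval 16.8 to 68.7%), against 264 of 11836 marked promoters, or 2.23%. It was also found in 3 of 6 other mitotic kinesins (Kif18b and the near-identical copies Kifc1 and Kifc5b) and in 6 of all 34 other kinesins (17.6%, interval 8.35 to 33.5%). The nearest such distances in the kinesins ran from 9 to 26 bp, and the median over marked promoters was 33.5 bp (quartiles 18 to 58). The limit of 100 bp was chosen after the distances had been seen. From 500 bp before to 100 bp after the 5′ end the pair was found in 6 of 10 kinesins, Kif2c and Kif18a being added, and in 5.24% of marked promoters. At RefSeq starts it was found in 4 of the 9 kinesins with a RefSeq promoter (Kif11, Kif23, Kif4 and Kif22) and in 2.95% of all RefSeq promoters.

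The share of promoters with an NF-Y-ChIP peak differed with the number of boxes, and in each class that held a kinesin most promoters went without a peak. Summits of NF-Y-ChIP, counted up to 1 kb from the 5′ end, were found at 1.12% of marked promoters with no box (82 of 7314), the class that held Kif20b, Kif2c, Kif18a and Kif15. With 1 box the share was 4.54% (128 of 2820, interval 3.83 to 5.37%), and this class held Kif11, Kif20a and Kif23. With 2 boxes it was 16.3% (181 of 1111, interval 14.2 to 18.6%), the class of Kif4, Kif14 and Kif22. Shares of 27.2% with 3 boxes and 51.2% with 4 or more concern classes without any of the 10 kinesins. No kinesin therefore belonged to a class in which more than 16.3% of promoters were called by box number alone.

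**Figure D2:**
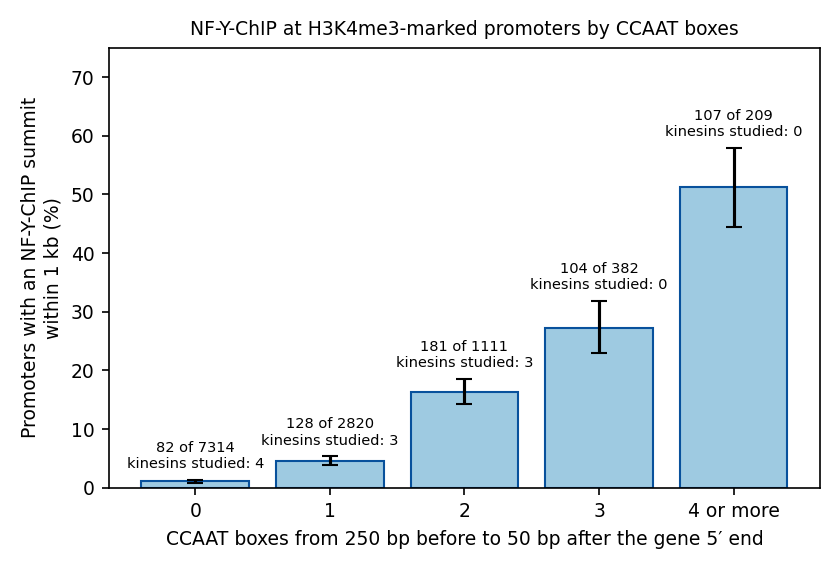
Percent of H3K4me3-marked promoters at which a summit of NF-Y-ChIP fell up to 1 kb from the gene 5′ end, by the number of CCAAT boxes from 250 bp before to 50 bp after it (bars, Wilson 95% intervals). The share rose from 1.12% with no box to 51.2% with 4 or more, and the 10 kinesins fell in the classes with 0, 1 and 2 boxes, as printed above the bars.

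Finer features of the boxes divided the kinesins further. Marked promoters with a single box were called in 9.66% of cases where that box was extended, as in Kif23, and in 2.66% where it was not, as in Kif11 and Kif20a. Promoters with 2 boxes were called in 21.9% of cases where the starts lay 20 to 60 bp apart (124 of 565) and in 10.2% where they lay over 100 bp apart (28 of 274, interval 7.17 to 14.4%). Kif4, Kif14 and Kif22, with 229, 127 and 179 bp between their boxes, all fell in the second class. These spacing limits were not set in advance, and promoters with other spacings are in neither class. Whether spacing bears on the missing peaks was not tested. Marked promoters with at least 1 extended box, however many boxes they held, were called in 21.9% of cases (399 of 1823), and Kif23, Kif14 and Kif22 belonged to this class. Marked promoters with the CCAAT and CHR pair were called in 20.5% of cases (54 of 264, interval 16.0 to 25.7%), and the pairs of Kif11, Kif23, Kif14 and Kif22 were among those not called.

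The nearest NF-Y-ChIP summits lay 27.2 kb or more from the 5′ ends of the 10 genes. The closest, at Kif20a, was nearest to Cdc23, a subunit of the anaphase-promoting complex, with a fold enrichment of 11.1 (signal at the summit over the local background). The next was 62.1 kb from Kif2c, nearest to Btbd19. For Kif23, Kif22, Kif11 and Kif15 the distances were 176, 232, 640 and 767 kb, and for Kif14, Kif20b, Kif18a and Kif4 they were 1504, 1814, 2630 and 8207 kb.

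H3K4me3-ChIP peaks covered the 5′ end of every one of the 10 genes, at levels from 22.1-fold to 78.3-fold. The median over the kinesins was 42.2, close to the 40.9 over marked promoters (quartiles of single promoters 27.2 to 53.3). Whether the set was shifted was not tested. Among the spindle motors, Kif11 had a peak of 2291 bp (chr19:37375463-37377753) at 42.7-fold, and Kif15 one of 1697 bp (chr9:122950262-122951958) at 67.4-fold. Kif15 thus stood above 92.4% of marked promoters, while Kif11 lay near the middle, at 53.8%.

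The kinesins of the central spindle and midbody spanned the whole range. Kif20b had the highest value of the 10, at 78.3-fold (chr19:34921585-34923230), rank 156 of 18816 H3K4me3-ChIP peaks and above 98.6% of marked promoters. Kif23 was at 41.7-fold (chr9:61945680-61947720) and Kif20a at 29.98-fold, the latter over the widest peak of the set, 2405 bp. Kif14 had both the lowest value, 22.1-fold, and the narrowest peak, 1056 bp (chr1:136465956-136467011), with 17.1% of marked promoters below it. Of the kinesin-6 genes, Kif20b thus had the highest value of the 10, while Kif23 and Kif20a lay below the median of the 10.

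Of the kinesins that act on chromosomes, Kif22 was high and Kif4 low. Kif22 was at 60.4-fold (chr7:127041418-127042790), and Kif4 at 23.6-fold (chrX:100625200-100627050). Kif18a was at 42.7-fold (chr2:109280276-109281796) and Kif2c at 39.7-fold (chr4:117181645-117183131), both close to the median. Kif4 and Kif14 were the only 2 of the 10 whose promoter peak lay below the median of the H3K4me3-ChIP list itself, 27.5-fold.

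**Figure D3:**
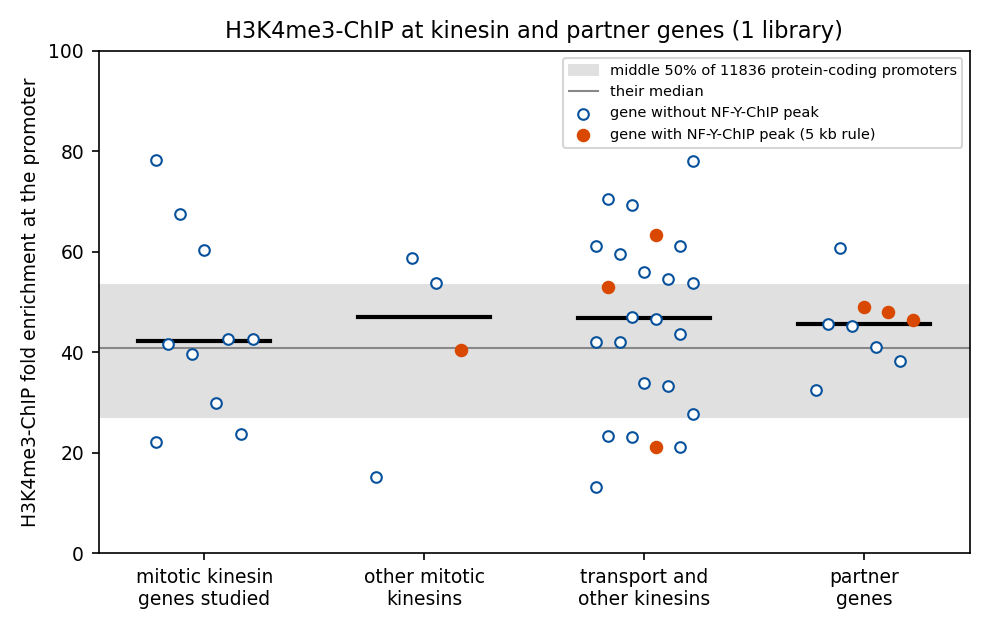
H3K4me3-ChIP fold enrichment of the peak over the gene 5′ end for the 10 mitotic kinesins, 4 other mitotic kinesins, 24 transport and other kinesins and 9 partner genes with such a peak (1 library, so no error bars; black bars are medians, the grey band the middle 50% of 11836 marked promoters). Filled points are genes with an NF-Y-ChIP peak; the 10 kinesins have none and run from 22.1 to 78.3.

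In 8 of 10 genes the H3K4me3-ChIP summit lay inside the gene, from +101 bp in Kif11 to +694 bp in Kif4. In Kif20a (−228 bp) and Kif15 (−183 bp) it lay upstream, as it did in 14.0% of marked promoters. Promoters shared with a gene on the opposite strand were found at 4 of the kinesins. The starts of Brd8, which encodes a subunit of a histone acetyltransferase complex, lay 12 to 60 bp before the 5′ end of Kif20a, and those of 1110059G10Rik 46 to 93 bp before that of Kif15. Starts of Mettl15, a mitochondrial ribosomal RNA methyltransferase, lay from −36 to +10 bp at Kif18a, and those of Pdzd11 from +198 to +831 bp inside Kif4.

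At such promoters a peak cannot be assigned to either gene. The start nearest the summit belonged to 1110059G10Rik at Kif15 (90 bp), to Pdzd11 at Kif4 (137 bp) and to Brd8 at Kif20a (168 bp), and to Kif18a itself at Kif18a (91 bp). None of the 4 neighbours had an NF-Y-ChIP peak. Both genes with an upstream summit were among these 4, and the other 6 kinesins had no start of another gene on the opposite strand within 1 kb.

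**Figure D4:**
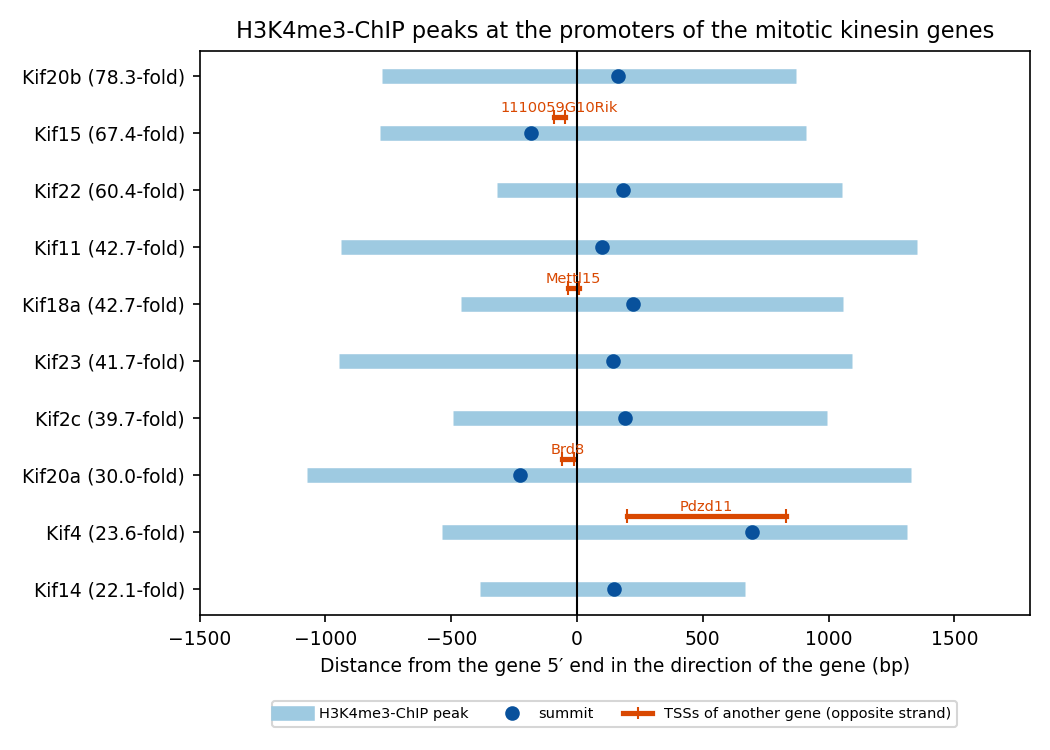
Extent (bars) and summit (points) of the H3K4me3-ChIP peak over the 5′ end of each of the 10 mitotic kinesins, in bp from that end in the direction of the gene and ordered by fold enrichment; orange marks span the starts of genes on the opposite strand. Every bar crosses 0, and the summits of Kif20a and Kif15 lie upstream, on the side of Brd8 and 1110059G10Rik.

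A second H3K4me3-ChIP peak overlapped the search region of 3 kinesins. At Kif22 it was stronger than the promoter peak, 63.2-fold over 4115 bp, but it overlapped only the 3′ end of the gene. Its summit lay 16041 bp downstream of the 5′ end, beyond the 3′ end of Kif22, and 22 bp from a start of Maz. At Kif18a it was 19.7-fold, at −2535 bp and 77 bp from another Mettl15 start. At Kif23 it was 7.57-fold, at −1255 bp. With the strongest peak of each gene in place of the promoter peak, the median over the kinesins was still 42.2.

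By their CpG ratio the promoters were CpG-rich, apart from Kif4. The ratio of observed to expected CpG had a median of 0.854 over the kinesins and 0.774 over marked promoters, with 60.3% and 61.7% of G or C. The share of G or C was lowest in Kif4 (40.3%), Kif22 (49.7%) and Kif2c (54.0%). Of marked promoters 0.735%, 8.58% and 19.4% had a lower share than these. In Kif4 the ratio was 0.0822 at the GENCODE 5′ end, and only 0.0760% of marked promoters had a lower one.

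The same search found NF-Y-ChIP peaks at other kinesins. Of 34 other kinesin genes 4 had one (11.8%, interval 4.67 to 26.6%), namely Kif18b, Kif24, Kif1b and Kifc2. The share was 3.69% over all protein-coding genes and 5.95% over marked promoters. A summit within 1 kb of the 5′ end was found in 3 of 34 (8.82%, interval 3.05 to 23.0%), beside 5.09% of marked promoters. Among 6 other mitotic kinesins Kif18b alone had a peak. It is a kinesin-8 related to Kif18a that controls astral microtubules, and its peak (chr11:102925050-102925236, 5.79-fold, rank 490 of 733) had its summit 10 bp before the 5′ end. Its boxes at −53 and −30, both on the strand of the gene, were followed by a CHR at +3.
Kif18b, chr11:102925125-102925194, minus strand: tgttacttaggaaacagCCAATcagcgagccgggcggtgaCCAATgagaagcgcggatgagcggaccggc
Kif24, chr4:41465077-41465139, minus strand: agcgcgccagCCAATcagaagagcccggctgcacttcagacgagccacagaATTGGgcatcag
Kif1b, chr4:149307804-149307863, minus strand: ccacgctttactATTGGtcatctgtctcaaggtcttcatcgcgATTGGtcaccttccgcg
These stretches are shown because each holds a pair of boxes close together near a called summit. None of the 10 kinesins had exactly 2 boxes with starts 20 to 60 bp apart in the counted window, and the boxes of Kif2c at −495 and −452 lie outside it. Kif24, a kinesin-13 of the centriole, had 5 boxes and the strongest of these peaks, 9.19-fold, with its summit 43 bp from a start of Nudt2. Kif1b, a motor of axonal transport, had boxes at −158 and −127 and the weakest, 4.17-fold, rank 673 of 733. At Kifc2 the summit lay at −2846 bp, 92 bp from a start of Cyhr1. Kifc1 and its near-identical copy Kifc5b had boxes at −46 and −17 and no peak, which is uncertain because reads may map to both.

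The partner genes of these kinesins in the central spindle and the chromosomal passenger complex had an NF-Y-ChIP peak in 4 of 10 cases (interval 16.8 to 68.7%), beside 3.69% of all protein-coding genes. This list was chosen with results of these data known, so its count is a description. Racgap1, the other subunit of centralspindlin beside Kif23, had a peak of 6.18-fold (chr15:99651551-99651771) with its summit 5 bp before the 5′ end. Cit, citron kinase, which Kif14 brings to the midbody, had the strongest, 16.7-fold and rank 36 of 733 (chr5:115845072-115845359). Ect2, the exchange factor that activates RhoA at the division plane, had a peak of 5.50-fold with its summit at the 5′ end. Cdca8, the Borealin subunit of the passenger complex, had one of 7.89-fold, 2370 bp into the gene and 24 bp from another of its own starts.
Racgap1, chr15:99651652-99651681, minus strand: gagctcctctgtgATTGGctggtgcgtgat
Cit, chr5:115845203-115845263, plus strand: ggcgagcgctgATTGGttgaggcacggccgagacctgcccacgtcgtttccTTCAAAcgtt
Racgap1 is shown because it had a single extended box, at −12 and 17 bp before a CHR, much as in Kif23, and Cit because the box and CHR lie beside its summit. The CHR of Racgap1, at +5, lies just past the stretch shown. Racgap1 thus had a called peak and Kif23 none, although each had 1 extended box a short way before a CHR. Prc1, Tpx2, Aurkb, Incenp, Birc5 and Plk1 had no NF-Y-ChIP peak. The pair was found in 6 of 10 partners, and 3 of those (Ect2, Cit and Racgap1) had a peak while Prc1, Plk1 and Aurkb had none. All 8 peaks at other kinesins and partners overlapped an H3K4me3-ChIP peak and had at least 1 CCAAT box within 50 bp of the summit. The paper reports such overlap for most of its NF-Y-ChIP peaks, and enrichment of the CCAAT motif. Neither trait is therefore particular to these genes. The interval for the kinesins, 0 to 27.8%, overlaps that of the partners and that of the other kinesins.

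The lists used here, within which ranks were counted, held 733 NF-Y-ChIP peaks (median 6.75-fold, lower quartile 5.32) and 18816 H3K4me3-ChIP peaks. The H3K4me3-ChIP peaks over 5′ ends were checked against markers: they were found at 6 of 8 genes of cortical progenitors and neurons (all but Tbr1 and Neurod6), at 1 of 8 genes of microglia, endothelium and blood (Kdr), and at 0 of 4 genes of unrelated tissues. The files hold no reads, so the depth of the libraries is unknown.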

How the data were processed

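ChIP-seq of E13.5 mouse cortex was analysed from 2 peak lists, 1 per antibody and library. After trimming with Trimmomatic the authors used Bowtie2 2.2.8 for alignment to mm10 (GRCm38) and called peaks with MACS2 2.1.2, at a p threshold of 0.001 for NF-Y-ChIP and a q threshold of 0.05 for H3K4me3-ChIP, the tool versions being those of the submitters' processing notes. The deposited fold enrichment is a ratio of summit signal to local background. The deposited −log10 values are those of the p-value and q-value, and the deposited score is scaled from them. The list of each antibody was recognised by its threshold and score. The study names an input as the negative control of the ChIP, and its description of peak calling does not name a control file. Depth per library is unknown, so the precision of a missing peak cannot be given.

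Genes and starts were those of GENCODE M21, and a gene's 5′ end was its outermost start. Promoters ran from 250 bp before to 50 bp after it, read from the GRCm38 reference with pysam 0.24.0. The CCAAT box and the CHR element were searched on both strands. Word positions are those of the first base in the direction of the gene, with the 5′ end at 0. RefSeq promoters of GRCm38 matched 9 of 10 kinesins. The members, the other kinesins and the partner genes were chosen with earlier results of these data known. All 10 kinesins were named, with neighbours within 1 kb and the listed genes that had an NF-Y-ChIP peak. Cdc23, Btbd19, Maz and the genes nearest other summits were named after their values were seen. Searches were tested on simulated data. Alternatives were another window, start, peak threshold and distance.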

Additional observations from a re-analysis of the deposited data

How the results depend on the processing

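The count of 0 of 10 kinesins with an NF-Y-ChIP peak was also 0 in all 6 alternatives (q threshold of 0.05, the stronger 50% of peaks, a summit within 1 kb of any start, 1 or 10 kb upstream, protein-coding starts). Of 34 other kinesins 1 instead of 4, and of 10 partners 2 instead of 4, kept a peak among the stronger 50% of NF-Y-ChIP peaks. The share of marked promoters with a CCAAT box that were called, 11.5%, was 8.50% in the window from 500 bp before to 100 bp after the 5′ end and 6.21% with the stronger 50% of peaks, both chosen after seeing the data. The cause was not tested. At least 2 boxes were found in 2 to 4 of the kinesins, and the pair of CCAAT and CHR in 4 to 6, over the alternative windows and starts. The CCAAT boxes near member summits and the distance of member summits had no value, since no kinesin had an NF-Y-ChIP peak. No paired analysis was possible because each antibody had 1 library, and no library could be left out.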
